A study of Mus musculus with 9 samples.

Results

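The genes described here are 49 well-detected genes, of 15674 on 9 arrays of mouse jejunum, whose values varied widely between mice. They were chosen by their values: a probe whose signal exceeded its noise 3 times or more, the manufacturer's detection limit, on all 9 arrays, and an SD of log2 signal over the 9 mice of at least 1.2. Of the 5880 genes with such a probe, 56 reached that SD, and 7 of them (Ccl5, Cd79a, Dbp and 4 histocompatibility genes whose symbols begin with H2-) were left out by name, as were Ms4a1 and the Cyp genes. The study had searched jejunal arrays for genes with uniform expression, by measures other than this SD. The samples were 9 single pieces of jejunum, 1 array each, from male mice of the outbred OF1 stock, aged 7 weeks and belonging to generation 3 of a feeding trial, with 3 mice each on feed B (mice 7, 8 and 10), feed K (mice 1, 3 and 4) and feed G (mice 4, 8 and 11). What the letters stand for was not given, no feed was a known control, and the time of day at sampling was neither randomized nor written down. Mice are called here by feed letter and number, as in B7.

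Jejunal tissue mixes enterocytes, which absorb nutrients, with mucus-secreting goblet cells, the Paneth cells at the crypt base that release antimicrobial proteins, and lymphocytes of the epithelium and lamina propria. Interferon gamma from lymphocytes induces immunity-related GTPases and the machinery of antigen presentation in epithelial and immune cells, and small proline-rich proteins are known for induction in stressed or bacterially colonized epithelium. An outbred stock adds genetic differences between animals to those of diet, microbiota and time of day. All 8 enterocyte markers on the array and 4 of 5 goblet cell markers were detected on all 9 arrays. In bulk tissue of this kind, fewer cells of a type and less RNA per cell cannot be told apart.

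The SD of the 49 genes lay between 1.21 and 2.44, with a median of 1.44, against a median of 0.293 over the 5880 well-detected genes. From the lowest to the highest mouse, the signal of a gene spanned between 7.99-fold and 111-fold, with a median of 17.4-fold. Just inside the limit stood Arhgdib, Tm4sf4 and AV028368 with SDs of 1.21, 1.21 and 1.22, and just outside it stood Ang2, Cdc42 and Mapk8ip2 with 1.198, 1.197 and 1.195. The scanner's CV of a spot had a median of 5% over the 51 member probes detected on all arrays, the same as over all probes detected on all arrays. The genes are described here in 3 sets. The second set is 17 genes that were lowest in the same 3 mice. The third is 14 genes with several probes, of which a spot was missing in 1 mouse. The first is the 18 remaining genes, which carried most of the known intestinal and immune functions.

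**Figure D1:**
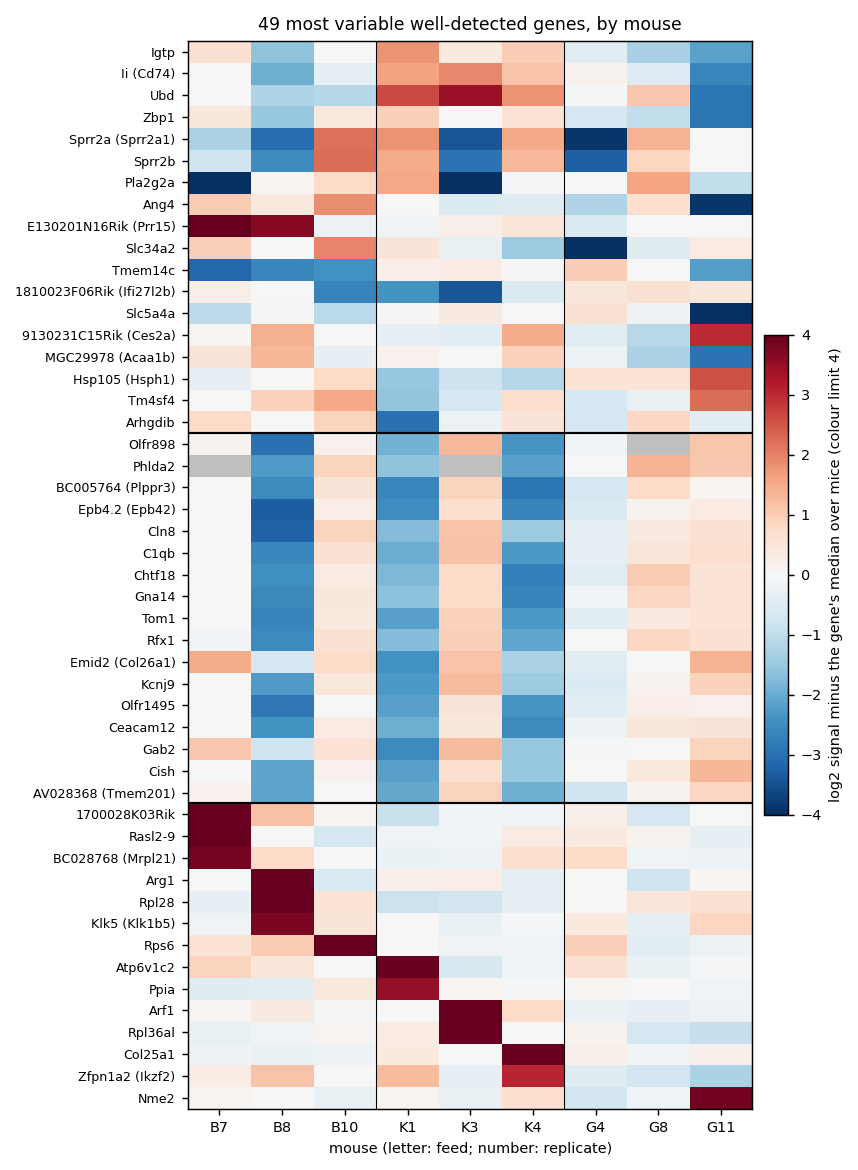
Log2 signal of each of the 49 genes minus its median over the mice, for the 9 mice in columns (3 per feed), with grey for a failed spot. Horizontal lines divide the sets, with the 18 genes of the first set at the top. Below them are 17 genes with their lowest values in mice B8, K1 and K4. At the bottom are 14 genes with several probes, each with its highest value in a single mouse. Colours stop at 4 log2 units.

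**Figure D2:**
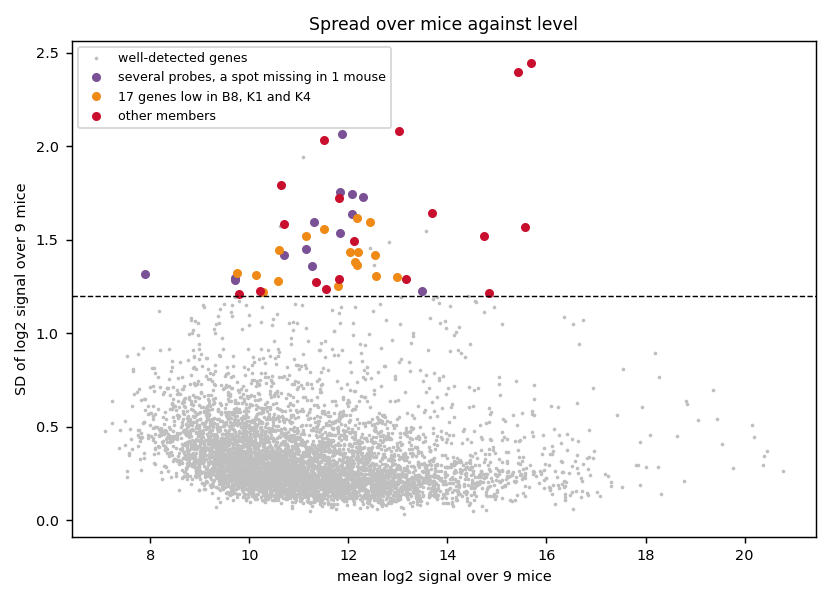
SD of log2 signal over 9 mice against the mean log2 signal for the 5880 well-detected genes (grey) and the 49 members (coloured by set), with the limit of 1.2 as a dashed line. The members spread over mean log2 signals from 7.89 to 15.68, and 7 grey points above the line are the genes left out by name.

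Genes of interferon response and antigen presentation formed the clearest group among the 18. Igtp, an interferon-inducible GTPase, Ii (Cd74), the invariant chain that guides class II histocompatibility molecules, Ubd, a ubiquitin-like modifier induced by interferon gamma and tumour necrosis factor, and Zbp1, a sensor of unusual nucleic acids, were joined by their pattern over the mice (average linkage on 1 minus Pearson r, joined below a distance of 0.4). All 4 were lowest in mouse G11.

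Ubd had log2 signals of 11.11, 9.88 and 9.96 in B7, B8 and B10, 13.75, 14.57 and 12.90 in K1, K3 and K4, and 11.08, 12.20 and 8.20 in G4, G8 and G11. Every mouse on feed K was above every other mouse, and the span of 82.7-fold ran from G11 to K3. The means were 13.74 ± 0.84 on feed K, 10.32 ± 0.69 on feed B and 10.49 ± 2.06 on feed G (each SD, n = 3). Feed K exceeded feed B by 3.42 ± 0.95 (SE) on the log2 scale. Here and below, the SE of a difference is that of limma, which draws each gene's variance towards those of all genes. In limma's fit over 9655 genes the adjusted p of the F test over the feeds was 0.739, and the exact permutation test of F over the 280 splits of the mice gave p = 0.05.

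Ii had log2 signals of 14.81, 12.87 and 14.43 on feed B, 16.43, 16.73 and 15.96 on feed K, and 14.97, 14.29 and 12.21 on feed G. As with Ubd, the 3 mice on feed K lay above the 6 others. Their mean exceeded that on feed B by 2.34 ± 0.74 (SE), and feed G differed from feed K by -2.55 ± 0.74 (SE). The exact permutation p of F was 0.0571, and the adjusted p in limma was 0.817. Of the markers of B cells, which present antigen with the invariant chain, 2 of 9 on the array were detected on all arrays, and their summed signal was 1672 to 2851 on feed B, 433 to 2926 on feed K and 1212 to 2996 on feed G. The lowest sums were those of K1 (433) and K3 (445), the same mice in which Ii was highest, while Fcer2a was detected on no array.

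Igtp had values of 12.63, 10.39 and 12.00 on feed B, 13.79, 12.40 and 12.98 on feed K, and 11.54, 10.71 and 9.88 on feed G. Zbp1 had values of 12.41, 10.45 and 12.37 on feed B, 12.91, 11.96 and 12.52 on feed K, and 11.28, 10.98 and 9.05 on feed G. For both genes the mice on feed K lay above those on feed G without overlap, whereas feed B overlapped with feed K and feed G. The log2 differences of feed G from feed K were -2.35 ± 0.65 (SE) for Igtp and -2.03 ± 0.71 (SE) for Zbp1, with an adjusted p of 0.960 in limma for either.

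Of the 15 tested genes of an interferon response list, 4 (Irf1, Ifi47, Igtp and Cxcl10) had an unadjusted p below 0.05 for feed G against feed K, all with lower values on feed G, and none had an adjusted p below 0.05. Among all 9655 genes, 2.39% had lower values on feed G at that unadjusted limit. The summed signal of the 9 list genes detected on all arrays was 17702 to 42065 on feed B, 24397 to 43622 on feed K and 12642 to 19044 on feed G. The median SD of these 9 genes was 0.877, and Igtp was the only member among them.

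Because these genes varied together, the upstream stretch of their promoters was searched on both strands for the core of an interferon-stimulated response element, a pair of GAAA runs with 2 bases between them, and for the letters TTCNNNGAA of a gamma-activated site. The promoter of Igtp in RefSeq (GRCm38.p6, plus strand, chr11:58199507-58199536) held both, 34 to 25 and 45 to 37 bases before the start, and the capitals mark them in the 30-base window:
Igtp: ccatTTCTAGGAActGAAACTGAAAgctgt
Over the 250 bases before the start, the first motif occurred in 2.98% and the second in 7.02% of 32851 promoters. The promoter of Ubd held neither, and none was given for Ii or Zbp1. A match describes the letters of a window only.

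1810023F06Rik (Ifi27l2b), a member of the interferon alpha-inducible protein 27 family, moved apart from this group. Its log2 signals were 16.61, 16.37 and 13.68 on feed B, 13.98, 12.96 and 15.81 on feed K, and 16.81, 16.98 and 16.83 on feed G. The values on feed G spread by an SD of only 0.09 (n = 3) and lay above all 6 others, and the difference of feed G from feed K was 2.62 ± 0.89 (SE; limma, adjusted p = 0.960).

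The small proline-rich proteins Sprr2a and Sprr2b, cross-linked components of the cornified envelope that are also made by intestinal epithelium, spread widely between mice on the same feed. Sprr2a (Sprr2a1) had the largest SD of all members, 2.44. Its log2 signals were 14.94, 13.15 and 18.41 in B7, B8 and B10, 18.01, 12.78 and 17.72 in K1, K3 and K4, and 12.30, 17.61 and 16.20 in G4, G8 and G11. Each feed held both low and high mice, and 2.29% of the variance lay between feeds. Sprr2b followed with 12.62, 10.87 and 15.66 on feed B, 14.92, 10.48 and 14.71 on feed K, and 10.15, 14.29 and 13.42 on feed G. The mice stood in the same order for both genes, from high to low B10, K1, K4, G8, G11, B7, B8, K3 and G4. Their log2 difference varied over the mice by an SD of 0.420, much less than either gene. They are neighbours within 1 Mb on a chromosome and closely similar members of a gene family, so that 1 transcript could bind the probes of both, and they were not counted as independent observations. Of the 9 genes of a list of squamous and wound genes on the array, these 2 and S100a6 were detected on all arrays, and S100a6 had an SD of 0.71.

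**Figure D3:**
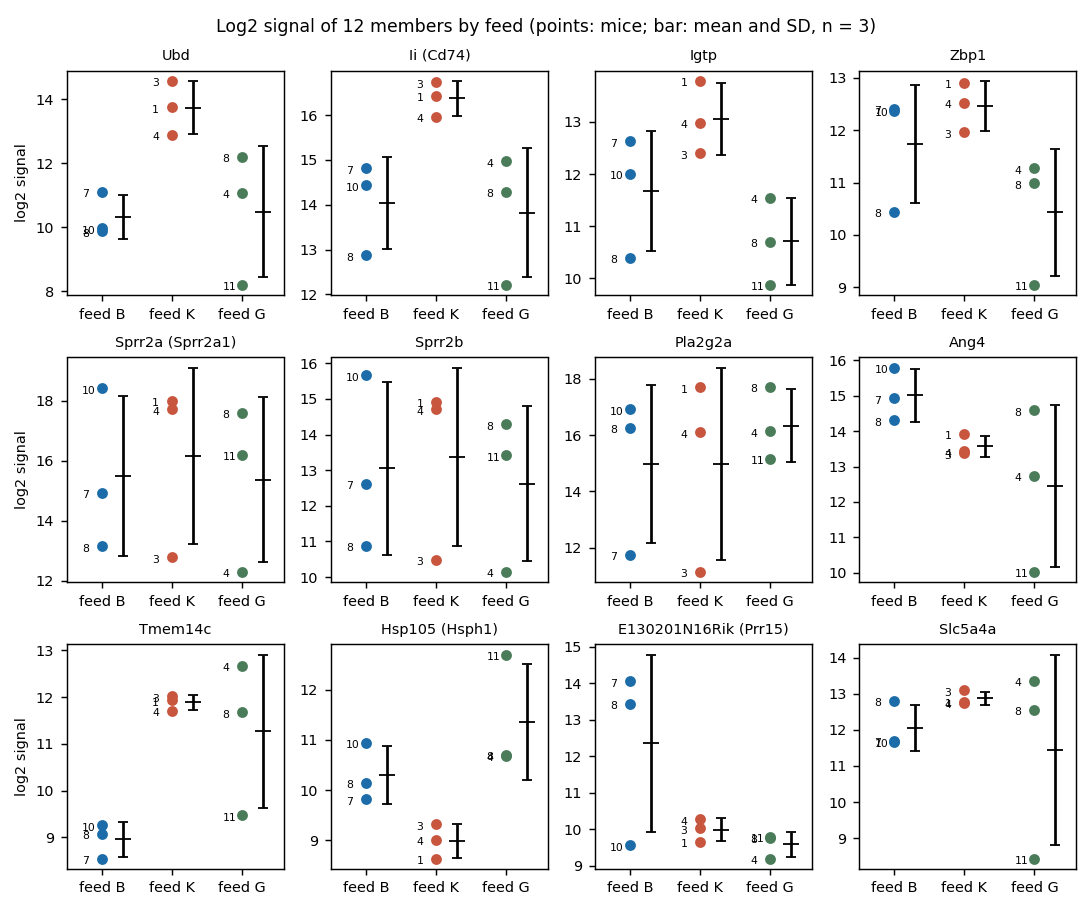
Log2 signal of 12 members by feed, with a point for each mouse (its number beside it) and the mean with SD of 3 mice as a bar. Ubd and Ii show feed K above both other feeds, Sprr2a, Sprr2b and Pla2g2a show low and high mice within feeds, and Slc5a4a and Ang4 show a single low mouse on feed G.

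Secreted antimicrobial proteins gave 2 members. Pla2g2a, the secreted phospholipase of Paneth cells that kills Gram-positive bacteria, had an SD of 2.40 and a span of 94.0-fold. Its log2 signals were 11.75, 16.26 and 16.91 on feed B, 17.69, 11.16 and 16.10 on feed K, and 16.14, 17.71 and 15.16 on feed G. B7 and K3 were both under 12 and the other 7 mice above 15, with a gap of 3.41 between G11 and B7. RefSeq lists the gene as a transcribed pseudogene in its reference strain, whose copy is known to be disrupted, while the mice here came from an outbred stock; genotypes were not measured and their part in the result was not tested.

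Ang4, a Paneth cell ribonuclease with antimicrobial activity, had log2 signals of 14.93, 14.31 and 15.79 on feed B, 13.92, 13.37 and 13.43 on feed K, and 12.73, 14.59 and 10.03 on feed G. Mouse G11 stood 2.70 below the next value. All 3 mice on feed B were above the 3 on feed K, and the difference of feed G from feed B was -2.56 ± 0.99 (SE; limma, adjusted p = 0.842). Mouse G11 was also lowest for the Paneth cell markers as a whole, of which 10 of 11 on the array were detected on all arrays: their summed signal was 1016290 in G11, against 2269790 to 3228080 in the other 8 mice. The part of that difference in Ang4 was not tested. Pla2g2a belongs to the same list, but was lowest in B7 and K3 and not in G11.

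Among 5 further members, a pair of transporters, a pair of metabolic enzymes and a membrane protein, mouse G11 held the extreme value in 4. Slc5a4a, a member of the sodium-glucose cotransporter family, had log2 signals of 11.70, 12.80 and 11.67 on feed B, 12.77, 13.09 and 12.74 on feed K, and 13.35, 12.55 and 8.44 on feed G. The other 8 mice lay between 11.67 and 13.35. MGC29978 (Acaa1b), a peroxisomal thiolase of fatty acid oxidation, had 12.06, 12.86 and 11.22 on feed B, 11.72, 11.54 and 12.48 on feed K, and 11.33, 10.29 and 8.58 on feed G. The difference of feed G from feed B was -1.98 ± 0.69 (SE; limma, adjusted p = 0.801).

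In the opposite direction, 9130231C15Rik (Ces2a), a carboxylesterase that hydrolyses lipids and drugs, reached 15.73 in G11, against 11.64 to 14.23 in the other 8 mice. Tm4sf4, a tetraspan membrane protein, reached 16.84 in G11, with 13.03 in K1 as its lowest value and 16.17 in B10 as its next highest. For these genes the F test over feeds had adjusted p values of 0.995 and 0.903 in limma, and the other mice on feed G did not share the level of G11. Slc34a2, the sodium-phosphate cotransporter of the brush border, had its extreme in another mouse: 13.05, 12.10 and 14.04 on feed B, 12.61, 11.81 and 10.68 on feed K, and 7.95, 11.62 and 12.42 on feed G. It was the only member among 16 brush border genes detected on all arrays, whose median SD was 0.427. Its value in G4 stood 2.72 below the next mouse. That spot only just passed as detected, since its signal was 3 times its noise. With G4 left out, the SD of Slc34a2 fell to 1.00, under the limit of 1.2.

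Mouse G11 was the highest or the lowest of the 9 for 10 of the 18 genes of this set. Among all well-detected genes G11 was an extreme for 30.7%. Without G11, 10 of the 18 kept an SD of 1.2 or more, and Ang4, Slc5a4a, MGC29978, 9130231C15Rik, Tm4sf4, Zbp1, Igtp and Hsp105 did not. Some markers of position along the gut also had an extreme value in this mouse. Of 8 proximal enterocyte markers on the array, 5 were detected on all arrays and Hamp and Onecut2 on none. The summed signal of the 5 was 218260 in G11 and 285273 to 856482 in the other 8 mice. Among the 5, Fabp1 was lowest in G11 (16.40), Slc40a1 was highest there (10.43), and Gata4, Rbp2 and Slc2a5 were neither. Of the 5 ileal enterocyte markers on the array, Fabp6, the ileal bile acid binding protein, had a log2 signal of 19.51 in G11. It was 17.84 in B10, 15.81 in B7 and 4.67 to 12.19 elsewhere. Slc10a2, the ileal bile acid transporter, had 12.66 in G11, 12.05 in B10 and 6.53 to 9.73 elsewhere. Fgf15, a hormone of the ileum, had 10.49 in G11 against 4.96 to 6.70. Fabp6 was detected on 8 arrays, Slc10a2 on 6, Nr0b2 on 5 and Fgf15 on 1. Nr0b2 was also highest in G11, at 10.18, whereas Ostb, a bile acid exporter and the only one of the 5 detected on all arrays, reached 16.06 in G11 and 16.58 in B10. The part of these markers in the values of the members was not tested.

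Stress and mixed functions were represented by Hsp105, Tmem14c, E130201N16Rik and Arhgdib. Hsp105 (Hsph1), a heat shock protein that acts as a nucleotide exchange factor for Hsp70, had log2 signals of 9.82, 10.14 and 10.94 on feed B, 8.64, 9.32 and 9.01 on feed K, and 10.68, 10.70 and 12.70 on feed G. All mice on feed K were below the 6 others. Its difference of feed G from feed K was 2.37 ± 0.56 (SE), with an unadjusted p of 0.00263 and an adjusted p of 0.960 in limma, and the exact permutation p of F was 0.0107, the lowest of any member. Of the 16 tested genes of an immediate early and stress list, 2 had an unadjusted p below 0.05 for feed G against feed K with higher values on feed G, against 2.14% of all genes, and the median log2 difference of the list was -0.03. The 2 were Hsp105 and Dnajb1, a heat shock protein and no member, which had 11.03 in G11 and between 9.15 and 10.22 in the other mice. No match to GAANNTTC, the inner letters of a heat shock element, was found in the 250 bases before the start in the first promoter RefSeq gives for the gene, and 6.69% of all promoters held one.

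Tmem14c, a mitochondrial membrane protein needed for haem synthesis, had 8.54, 9.07 and 9.25 on feed B, 11.94, 12.02 and 11.71 on feed K, and 12.67, 11.68 and 9.47 on feed G. The 3 mice on feed B lay below the 6 others, by 2.93 ± 0.69 (SE) against feed K and 2.32 ± 0.69 (SE) against feed G in their means. G11 (9.47) was close to B10 (9.25), whereas the other 5 mice lay at 11.68 or more. The permutation p of the F statistic over 280 exact splits was 0.0464, and the adjusted p was 0.729 in limma.

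E130201N16Rik (Prr15), a proline-rich protein expressed in gut epithelium, had 14.05, 13.45 and 9.57 on feed B, 9.66, 10.03 and 10.28 on feed K, and 9.20, 9.78 and 9.79 on feed G. B7 and B8 stood 3.17 above the next mouse, while B10 lay among the mice of the other feeds. The limma F test gave an adjusted p of 0.897 over all mice and of 0.0246 when B10 was left out, so that the call depended on that mouse, and the remaining 2 mice on feed B were then assumed to vary like those on the other feeds. Arhgdib, a gene expressed mainly in blood cells, had a single low value of 6.95 in K1, with the other 8 mice between 9.24 and 10.81.

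The second set held 17 genes that shared their 3 lowest mice. They were AV028368 (Tmem201), BC005764 (Plppr3), C1qb, Ceacam12, Chtf18, Cish, Cln8, Emid2 (Col26a1), Epb4.2 (Epb42), Gab2, Gna14, Kcnj9, Olfr1495, Olfr898, Phlda2, Rfx1 and Tom1. Their known roles have little in common: Tom1 acts in endosomal sorting, Rfx1 and Chtf18 in transcription and in chromosome cohesion, Cish and Gab2 in cytokine and growth factor signalling, Gna14 and Kcnj9 as a G protein subunit and a potassium channel, Cln8 in the endoplasmic reticulum, C1qb in complement, Epb4.2 in the red cell membrane, and Olfr1495 and Olfr898 as odorant receptors. Each had a single probe. Tom1 and, in the first set, Tmem14c were also among the candidates for uniform expression that the study followed by RT-qPCR. These candidates came from the study's meta-analysis of jejunal arrays of several platforms, in which its own OF1 arrays were included. By that method, in jejunum of several mouse strains, the study placed both among its more uniform candidates, apart from an outlying OF1 sample for Tmem14c. On the arrays described here, the single probes of Tom1 and Tmem14c spanned 11.7-fold and 17.5-fold.

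In all 17, the 3 lowest values were those of B8, K1 and K4. The median over the genes, each taken relative to its own median over mice, was -2.54 in B8, -2.04 in K1 and -2.29 in K4, compared with 0 in B7, 0.43 in B10, 0.91 in K3, -0.36 in G4, 0.39 in G8 and 0.62 in G11 on the log2 scale. The order within the low and the high mice differed between genes: K3 was the highest mouse for 11 of the 17, and B8 was the lowest for 9. Spans from lowest to highest mouse ran from 7.99-fold for AV028368 to 21.1-fold for Cln8. In the 3 low mice the signal-to-noise ratio ran from 3.18 (Emid2 in K1), near the detection limit of 3, to 36.96 (Ceacam12 in K1).

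Tom1 was typical. Its log2 signals were 12.72, 10.08 and 13.11 on feed B, 10.56, 13.63 and 10.43 on feed K, and 12.30, 13.09 and 13.26 on feed G. Low and high mice thus shared a feed on B and on K, and all 3 mice on feed G were in the upper range. The unadjusted p of its F test over feeds was 0.442 in limma.

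C1qb, the B chain of the complement component C1q, had 12.51, 9.92 and 13.12 on feed B, 10.52, 13.69 and 10.21 on feed K, and 12.17, 12.99 and 13.18 on feed G. C1qa, the A chain of the same component, was detected on all arrays as well, and its signals lay between 11.91 and 12.42 in all 9 mice, an SD of 0.195. The 2 chains are made by the same macrophages in known biology, and on these arrays their probes did not follow each other. Of the 10 macrophage and granulocyte markers on the array, 4 had a probe detected on all arrays. Among these, Emr1 and Cd14 had SDs of 0.23 and 0.34, and C1qb was the only member of its list. Csf1r and Cd68, which had no such probe, had SDs of 0.59 and 0.84.

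**Figure D4:**
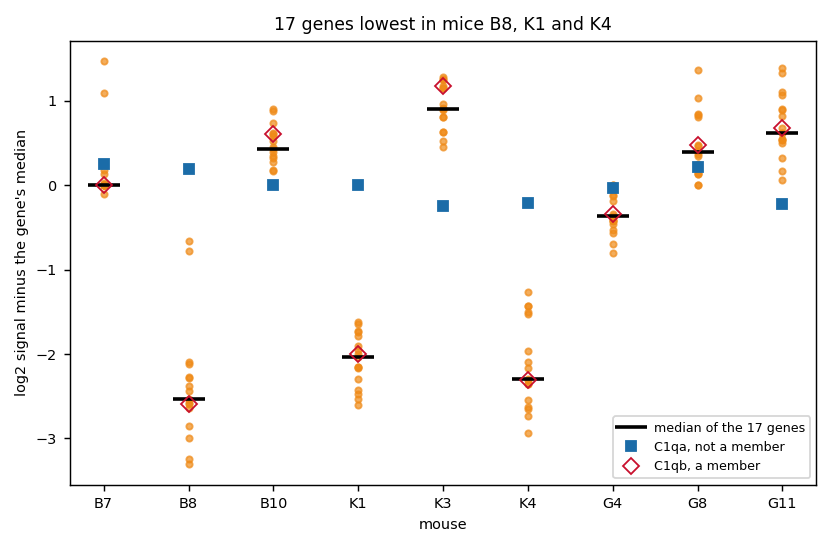
Log2 signal minus the gene's own median for the 17 genes of the second set (orange points), their median in each mouse (black bars), C1qb (red diamonds) and C1qa (blue squares, not a member). The 17 genes are lowest in B8, K1 and K4, where C1qa lies near its median.

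The same 3 mice were lowest for 170 of the 5880 well-detected genes (2.89%), and for 31 of these the gap to the other 6 mice was at least 1 log2 unit, 14 of them members. K1 and K4 were on feed K and B8 was on feed B. In the sort order of the array barcodes they were the first 3 of the 9 arrays, and the part of this order in the result was not tested. The arrays of G8, G4 and G11 held ranks 7, 8 and 9 in that order. Differences of feed G from the other feeds and differences by barcode order therefore cannot be told apart for any member. The share of detected probes was 33.7%, 42.1% and 41.2% on these arrays and 36.7% to 48.1% on the other 6, and the median log2 signal of the hybridization control spots was 16.16, 16.24 and 16.20 on these arrays and 16.17 on that of G11, the 4 lowest values, against 16.30 to 16.47 on the other 5. The part of these control signals in the result was not tested. In 2 of the 17, spots had failed: Olfr898 in G8, and Phlda2 in B7 and K3, so that their fits used 8 and 7 mice.

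Feed differences in this set turned on mouse K3. No gene of the 17 had an unadjusted p below 0.05 in the F test, and Phlda2 alone had one for feed G against feed K (2.70 ± 0.93, SE; limma, adjusted p = 0.960), in a fit without K3, where its spot had failed. When K3 was left out for all genes, 15 of the 17 were below an unadjusted p of 0.05 for feed G against feed K, since K1 and K4 alone then stood for feed K.

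In the third set the spread came with the averaging of probes. In each of 14 genes, the gene value was the mean of a bright probe and a dim one, the spot of the dim probe had failed in 1 mouse and was left out, and the mean in that mouse was that of the bright probe. All 14 had their highest value in the mouse with the missing spot. These were 1700028K03Rik, Rasl2-9 and BC028768 (Mrpl21) in B7, Arg1, Rpl28 and Klk5 (Klk1b5) in B8, Rps6 in B10, Atp6v1c2 and Ppia in K1, Arf1 and Rpl36al in K3, Col25a1 and Zfpn1a2 (Ikzf2) in K4, and Nme2 in G11. Ppia had 3 probes, of which 2 were bright.

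Rps6, a protein of the small ribosomal subunit, showed what the averaging did. Its gene values were 12.10, 12.56 and 16.70 on feed B, 11.55, 11.42 and 11.42 on feed K, and 12.50, 11.13 and 11.32 on feed G, an SD of 1.73. The probe detected on all 9 arrays lay between 16.67 and 17.07 in all mice, an SD of 0.12, while the other probe lay between 5.44 and 8.27 in the 8 mice where its spot was kept and was detected on 1 array. Arg1, the urea cycle enzyme arginase, had a gene value of 16.62 in B8 and of 10.85 to 11.91 elsewhere, whereas its bright probe stayed between 16.30 and 16.75. For 1700028K03Rik, with the widest span of all 49 genes (111-fold), the bright probe ran from 15.45 to 17.17.

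Taken from probes kept on all 9 arrays, the SDs of the 14 genes were 0.11 to 1.13, with a median of 0.165, and 0 of 14 reached 1.2. Zfpn1a2 (Ikzf2), a transcription factor of regulatory T cells, kept the largest, 1.13: its complete probe read 9.17, 10.29 and 9.43 on feed B, 9.81, 8.85 and 10.61 on feed K, and 8.45, 7.57 and 7.35 on feed G. All mice on feed G were below all others by this probe. The next largest was 0.53, for 1700028K03Rik. Of the 832 well-detected genes with several probes, 59 had such an array (7.09%), against 14 of the 15 members with several probes, a count that the rule favoured since a missing dim spot raises the SD. Sprr2b was the exception, with SDs of 1.73 and 2.46 for its 2 probes, both detected on all arrays.

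**Figure D5:**
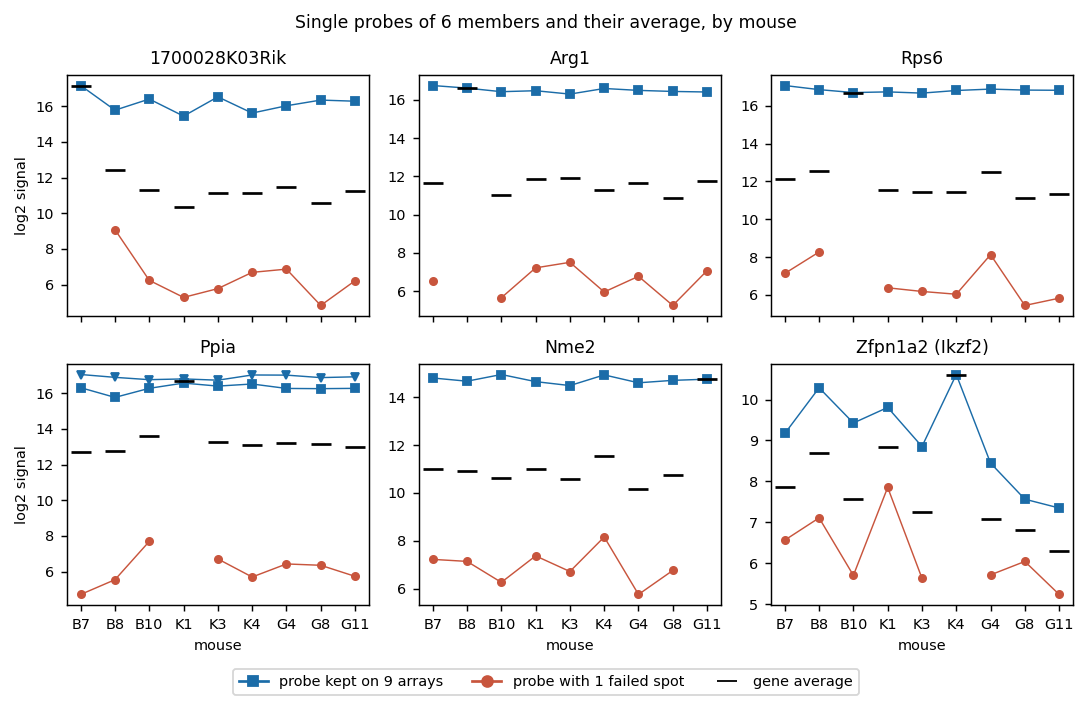
Log2 signal of the single probes of 6 members in the 9 mice (blue: probes kept on all arrays; red: probes with 1 failed spot) and the gene average (black bars). The average jumps to the level of the bright probe in the mouse whose dim spot is missing, while the bright probe itself changes little except for Zfpn1a2.

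Over all 49 genes, 7 (14.3%) had an unadjusted p below 0.05 in limma's F test over the feeds, against 5.37% of the 9655 genes tested, and these 7 were of the first set: Tmem14c, Hsp105, Ubd, Ii, Igtp, MGC29978 and E130201N16Rik. The SD that chose the members includes the spread between feeds, and limma draws their large variances towards those of all genes, so that these counts are a description and nothing is read from the excess. No member and no other gene had an adjusted p below 0.05 (0 of 9655, with 518 below an unadjusted 0.05), and the smallest adjusted p of a member was 0.729. The exact permutation test placed 2 of the 47 members with 9 values below 0.05, Hsp105 and Tmem14c, compared with 5.09% of 9556 genes with 9 values, and no gene past an adjusted 0.05. The smallest p that 280 splits allow is 0.00357.

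Genes of the circadian clock, which follow the time of day in the gut, differed by feed in the same fit. Of 17 tested genes of a list of clock genes and their outputs, 12 had an unadjusted p below 0.05 in the F test (5.37% of all genes). None was a member, Dbp having been left out by name. For feed K against feed B, 8 were higher and 2 lower at that limit (4.34% and 1.98% of all genes). For feed G against feed B, 9 were higher and 2 lower (3.84% and 1.9%). None was past an adjusted 0.05. The 9 list genes detected on all arrays, Dbp among them, had a summed signal of 8885 to 14956 on feed B. It was 17654 to 26463 on feed K and 20745 to 30355 on feed G. Per2, a repressor of the clock loop, was detected on 7 arrays. Its log2 signals were 5.79, 8.62 and 6.63 on feed B, 9.15, 9.65 and 9.14 on feed K, and 10.60, 9.36 and 11.15 on feed G. Every mouse on feed B was thus below the 6 others. Since the time of sampling was not written down, differences by feed and by time of day cannot be told apart for any member.

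By pairs of feeds, which share arrays, the contrast of feed K with feed B placed 5 members under an unadjusted p of 0.05 (6.32% of all genes). Ubd, Ii and Tmem14c were higher on feed K (4.34% of all genes), and Hsp105 and E130201N16Rik were lower (1.98%). For feed G against feed B there were 4 (5.74% of all genes), Tmem14c being higher (3.84%) and Ang4, MGC29978 and E130201N16Rik lower on feed G (1.9%). For feed G against feed K there were 9 (4.54% of all genes), of which Hsp105, 1810023F06Rik and Phlda2 were higher (2.14%) and Ubd, Ii, Igtp, Zbp1, MGC29978 and Zfpn1a2 lower on feed G (2.39%). None of these members had an adjusted p below 0.05. The median log2 difference of the members was -0.38, -0.03 and 0.43 in these pairs, compared with 0.05, 0.06 and -0.01 over all genes.

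Groups that did not overlap were counted in the same way. All mice on feed K were above those on feed G for 7 members (9.25% of the 5880 well-detected genes), and all on feed K were above those on feed B for 4 (5.56%). All mice on feed B were above those on feed K for 5 members (4.18%), and above those on feed G for 2 (6.24%). All mice on feed G were above those on feed K for 4 members (6.05%), and above those on feed B for 3 (5.12%). Several of these were genes of the third set, such as Arf1, Rps6, Rpl28 and Col25a1, whose values were means over unequal probes.

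Most of the spread lay between mice on the same feed. The median share of a member's variance that lay between feeds was 27.1%, near the 23.3% over all well-detected genes, and it was 48.7% for the first set, 20.2% for the second and 31.0% for the third. The pooled SD within feeds was itself at least 1.2 for 40 of the 49 genes, and for 27 of the 35 that had no missing spot among several probes. Shares were highest for Tmem14c (71.6%), Hsp105 (70.3%) and Ubd (67.3%), and lowest for 9130231C15Rik (1.03%), Sprr2a (2.29%) and Sprr2b (2.45%).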

How the data were processed

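RNA of 9 jejunum samples, 3 per feed, was hybridised to single-colour Applied Biosystems Mouse Genome Survey arrays of 60-mer probes. The labels give Trizol and RNeasy columns for the extraction, whereas the study's methods describe Qiazol and miRNeasy. The submitters' processing notes name RMA. For each spot the authors deposited a signal intensity, corrected for background and normalized over the array, with the signal-to-noise ratio, the CV (both scores of the scanner software, used for detection and description) and a quality flag. A whole-series table of linear signal was also deposited by the authors, and each of its 297108 values equalled the assay-normalized column of the scanner output; what that normalization divides by is not known.

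After removal of spots flagged over 5000, the intensities were quantile normalized over the 9 arrays (arithmetic mean), log2 transformed and averaged over the probes with 1 symbol, and the rule stated at the start of the report was applied. Of 33012 probes, 17302 carried a symbol. Symbols are those of the array files, with the RefSeq name (GRCm38.p6) in parentheses where it differs. Of the 49 genes, 47 were matched by accession and 2 by symbol. A failed spot still counted as detected by its signal-to-noise ratio, which bears on Olfr898 and Phlda2. The members and all lists were chosen with earlier results of these data known, so their levels, SDs and patterns are descriptions without a test. The choice did not use the feed labels, but the SD includes the spread between feeds. Every member is named.

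The feeds were compared with limma (version 3.58.1, under R 4.3.3). The fit took in 9655 genes that 3 or more arrays detected and that had 5 or more values. Benjamini-Hochberg adjustment ran over all of them, and the contrasts of feed pairs were two-sided. The exact permutation test of F counted, among the 280 splits, those with an F at or above the observed one. The limma fit and the permutation test were both tested on simulated data. Other steps ran in Python 3.11.15 with scipy 1.17.1, pandas 2.3.3 and numpy 2.4.6. Each mouse was a separate animal, nothing says how the mice were related, and the number of arrays limits the precision. Tried as alternatives were the series table, median scaling, failed spots kept, the brightest probe, a floor at percentile 5, other limits of detection, the spread within feeds, and all arrays but one. An alternative that uses only probes kept on all 9 arrays was chosen after seeing the data. No scan or slide batch was run as a block, since no label or header names one.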

Additional observations from a re-analysis of the deposited data

How the results depend on the processing

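No paired analysis was possible because any pair of feeds shared at most 1 replicate number. Of the 49 genes, 49 were also found with a floor at percentile 5, 44 among 72 with median scaling, 45 among 66 in the series table, 35 among 38 with the brightest probe, 35 among 37 with failed spots kept and 33 of 33 with probes kept on all 9 arrays, where none of the 14 genes with a missing spot remained and Olfr898 and Phlda2 could not be computed. Asking for detection on 5 arrays only gave 250 genes, and a signal-to-noise limit of 10 on all 9 arrays gave 25. These 25 held 8 of the 18 genes of the first set, 4 of the 17 of the second and 13 of the 14 of the third. With the pooled SD within feeds there were 53, of which 40 were shared. Leaving out an array gave between 46 and 64 genes. In the F test the members below an unadjusted p of 0.05 were 4 to 11 when an array was left out (4 without G11, 11 without K3), 11 when only genes detected on all 9 arrays were tested and 2 by the exact permutation test. Leaving out an array gave 4 to 8 members for feed K against feed B (8 without B7 and without K3), 2 to 6 for feed G against feed B (2 without G4) and 5 to 22 for feed G against feed K (22 without K3, 5 without G11). Genes past an adjusted p of 0.05 were 0 to 3 when an array was left out: without B10 they were E130201N16Rik, Fbxo23 and Rhoq, the latter 2 being no members and named after their values were seen. Testing only genes detected on all 9 arrays gave 1, 4933432P15Rik, also no member. The median share of variance between feeds was 22.3% to 47.9% when an array was left out (highest without K3). The cause of these changes was not tested. Of the first set, Arhgdib, Tm4sf4 and MGC29978 fell under an SD of 1.2 with median scaling (1.19, 1.19 and 1.08).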
